A study of Rattus norvegicus with 9 samples.

Results

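The genes of the islet hormones were followed in pancreatic islets of rats fed a cafeteria diet. They were Ins1, Ins2, Iapp, Gcg, Sst, Ppy, Pyy and Ghrl, 8 of 14217 genes named on the array, and were taken by symbol: a probe set counted where the platform annotation gave it that symbol and no other. Each of the 8 had 1 such probe set, and 8 of 8 passed the filter on dim signals. Islets came from adult male Wistar rats, 7 weeks old and weighing 225 to 250 g at the start, after 30 days on a cafeteria diet (66% of calories from fat, 5 arrays) or on standard chow (8% of calories from fat, 4 arrays). The arrays of each diet are labelled as biological replicates, and the design text calls the samples independent; a further standard sample named there was not analysed here. Rats were not genetically altered, and islets were freed with collagenase, separated on a gradient and picked by hand. Groups follow the sample titles, which the source names and descriptions repeat; in 9 of 9 samples the diet characteristic names the other diet, so that grouping by it would give each difference here the opposite sign. Each probe set has 1 linear signal per array, so the number of arrays, not a read depth, limits their precision.

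Islets are clusters of endocrine cells in the pancreas, and each cell type is known for its hormone. Beta cells make insulin, which lowers blood glucose, and co-release amylin from the same granules. Alpha cells make glucagon, which raises glucose, delta cells make somatostatin, which restrains the other cells, and a small population makes pancreatic polypeptide. Peptide YY, a relative of pancreatic polypeptide, is found in some islet cells, and ghrelin marks rare epsilon cells. Rats and mice, unlike most mammals, carry a pair of insulin genes. The labelled tissue was checked against genes outside the hormone set. Chga, a granule protein, had a signal of 19271 ± 1486 (SD, n = 5) in cafeteria islets and 20004 ± 3990 (n = 4) in standard islets, and Pcsk2, a prohormone convertase, 30695 ± 1716 and 28350.5 ± 3721. Slc2a2, the glucose transporter of beta cells, had 31483 ± 2885 and 29607 ± 2654. No probe set named here belonged to Slc30a8 or G6pc2.

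The upstream sequences of Ins1, Ins2, Iapp and Gcg are shown as a description. Their part in the signals was not tested. Each run gives the 250 bases before the transcription start in RefSeq, build GRCr8, read 5′ to 3′ on the strand of the gene. Capitals mark matches, on either strand, to 3 short motifs. The TATA box was searched as the letters TATAAA. The core motif of homeodomain factors such as Pdx1 was searched as TAAT, and the E box, bound by factors such as Neurod1, as CANNTG. Ins1 lies at chr1:261185869-261186118 on the plus strand, Ins2 at chr1:207273806-207274055 on the minus strand, Iapp at chr4:176967847-176968096 on the plus strand and Gcg at chr3:67531534-67531783 on the minus strand.
Ins1: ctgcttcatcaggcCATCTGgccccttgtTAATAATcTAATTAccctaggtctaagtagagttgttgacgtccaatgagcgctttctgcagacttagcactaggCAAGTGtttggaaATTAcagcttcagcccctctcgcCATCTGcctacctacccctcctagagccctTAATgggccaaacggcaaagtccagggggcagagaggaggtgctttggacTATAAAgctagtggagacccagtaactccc
Ins2: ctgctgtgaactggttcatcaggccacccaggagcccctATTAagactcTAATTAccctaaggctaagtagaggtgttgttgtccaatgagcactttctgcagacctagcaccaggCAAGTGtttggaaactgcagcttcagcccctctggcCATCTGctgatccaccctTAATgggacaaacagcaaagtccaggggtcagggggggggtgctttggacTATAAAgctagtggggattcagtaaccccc
Iapp: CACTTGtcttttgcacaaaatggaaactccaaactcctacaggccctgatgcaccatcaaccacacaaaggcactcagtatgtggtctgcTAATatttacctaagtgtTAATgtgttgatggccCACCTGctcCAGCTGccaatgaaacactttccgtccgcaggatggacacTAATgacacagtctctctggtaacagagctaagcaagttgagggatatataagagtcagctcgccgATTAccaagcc
Gcg: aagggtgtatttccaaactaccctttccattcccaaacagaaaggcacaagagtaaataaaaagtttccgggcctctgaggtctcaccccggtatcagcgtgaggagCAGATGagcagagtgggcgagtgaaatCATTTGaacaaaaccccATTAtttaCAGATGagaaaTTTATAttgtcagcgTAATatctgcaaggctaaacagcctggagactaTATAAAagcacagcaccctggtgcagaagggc

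In a global alignment the Ins1 and Ins2 windows matched at 209 of 263 positions (79.5%). Both had TATAAA with its first base 30 bases before the start, and Gcg and Ppy had it 32 bases before the start. TAAT occurred 6 times in the Ins1 window, 4 times in Ins2, 4 times in Iapp, 2 times in Gcg and 5 times in Sst, counting overlapping matches such as those within TAATTA. The windows of Ppy, Pyy and Ghrl held no TAAT. The E box matched 3 times in Ins1, 2 in Ins2, 3 in Iapp, 3 in Gcg, 1 in Sst and 1 in Pyy. Among 33465 windows of this length over all genes, 12.9% held TATAAA, 57.0% TAAT and 65.5% CANNTG. The cyclic AMP response element TGACGTCA, held by 1.59% of all windows, was in none of the 8 windows. Each window ends at the start that RefSeq gives, so an element past it or farther upstream would be missed. A match is a description of the letters and not a site of binding. The Ppy and Pyy starts lie 6234 bases apart on chromosome 10.

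The question of the comparison was whether the diet changed the hormone genes. No member passed the test, and the per-array values overlapped between diets for each gene. The Ins1 signal was 25458, 41146, 29319, 30787 and 35638 in cafeteria replicates 1 to 5, against 35391, 33017, 22422 and 31628 in standard replicates 1 to 4. Cafeteria replicate 2 was the highest array and standard replicate 3 the lowest, with the other arrays between. Ins2 had 21111, 30943, 24116, 29987 and 28214 in cafeteria islets, against 28655, 24058, 18312 and 25301 in standard islets. It had its highest and lowest signal on the same arrays as Ins1, and the range of cafeteria signals overlapped that of standard ones. Iapp, which encodes amylin, had 38843 and 54212 in cafeteria replicates 1 and 2 and 38120.1, 44037 and 48109 in replicates 3 to 5, against 49704, 42284, 33196 and 40329 in standard islets. Again cafeteria replicate 2 was highest and standard replicate 3 lowest.

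Gcg, the glucagon gene, had 40262, 50767, 34667, 41084 and 43599.9 in cafeteria islets, against 49015, 39499, 34119.8 and 38977 in standard islets. Its group ranges nearly coincided. Sst had 32723, 35981, 18287, 29415 and 25926 in cafeteria islets, against 34238, 29804, 29251 and 29742 in standard islets. Cafeteria replicate 3 had the lowest Sst signal of the 9 arrays, and 3 of the 4 standard arrays lay close together. On the log2 scale its SD was 0.38 in cafeteria and 0.11 in standard islets.

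Ppy, the pancreatic polypeptide gene, had 42899, 50611, 30182, 41198 and 40782 in cafeteria islets, against 53623, 47039, 34053 and 38701 in standard islets. Pyy had 7885, 6961, 3772, 7213 and 6469 in cafeteria islets, against 9333, 7188, 6319.8 and 6989 in standard islets. For both genes cafeteria replicate 3 was the lowest array and standard replicate 1 the highest. Ghrl, the ghrelin gene, had 473, 548, 529.6, 786 and 161 in cafeteria islets, against 602, 635 and 498 in standard replicates 1 to 3 and 522 in replicate 4. Its highest and its lowest signal were both from cafeteria islets, in replicates 4 and 5, so the standard range lay inside the cafeteria range.

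**Figure D1:**
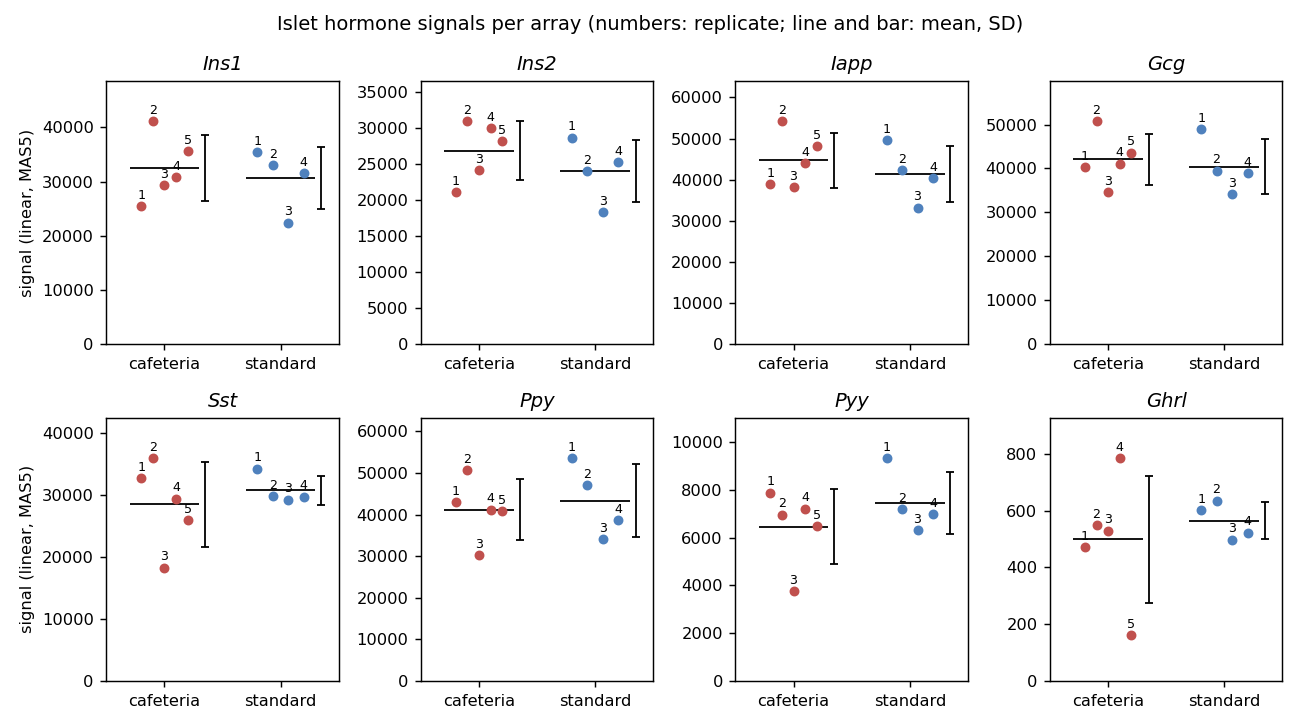
Signal of each hormone gene (y axis, linear, one scale per gene starting at 0) on each array, cafeteria left and standard right; numbers are replicates, lines are means and bars SD. The diets overlap for 8 of 8 genes, with cafeteria replicate 3 low for Sst, Ppy and Pyy and cafeteria replicate 5 low for Ghrl at 161.

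In limma's test over 18625 probe sets, 0 of 8 members had an adjusted p under 0.05, beside 0% of all probe sets. Without adjustment 0 of 8 members had p under 0.05, beside 5.80% of all probe sets, and groups did not overlap for 0 of 8, beside 1.76%. The fold of cafeteria over standard, taken on signal + 16, was 1.06 for Ins1 with a 95% interval of 0.841 to 1.34, and 1.12 for Ins2 with 0.903 to 1.39. Iapp had 1.08 (0.886 to 1.32) and Gcg 1.04 (0.864 to 1.26). Sst had 0.904 (0.708 to 1.15), Ppy 0.951 (0.753 to 1.20), Pyy 0.850 (0.639 to 1.13) and Ghrl 0.802 (0.490 to 1.31). Thus 4 estimates were above and 4 below equal signals, with a median log2 fold of -0.0067 beside -0.0090 over all probe sets tested. The brightest 1% of probe sets, without the members, had a median log2 fold of 0.050. Their 5th to 95th percentiles were -0.16 to 0.25. In limma the members' adjusted p ran from 0.870 to 0.960. Exact two-sided permutation p-values ran from 0.373 to 0.690, where 0.0079 is the smallest that splitting 9 arrays into 5 and 4 allows. The signs of Ins1, Gcg, Sst, Ppy and Ghrl turned when single arrays were left out: Sst had a log2 fold of -0.15 with all arrays and 0.0041 without cafeteria replicate 3, and Ghrl -0.32 and 0.029 without cafeteria replicate 5. Ins2 had 0.16 with all arrays and 0.037 without standard replicate 3, Iapp 0.11 and 0.011 without the same array, and Pyy -0.24 and -0.053 without cafeteria replicate 3. With array weights Ins2 had a log2 fold of 0.29 (95% interval 0.0077 to 0.58) and an unadjusted limma p of 0.045, which was 0.499 after adjustment. These p-values do not show that the diets were alike, and in whole islets fewer cells of a type and less RNA per cell cannot be told apart.

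**Figure D2:**
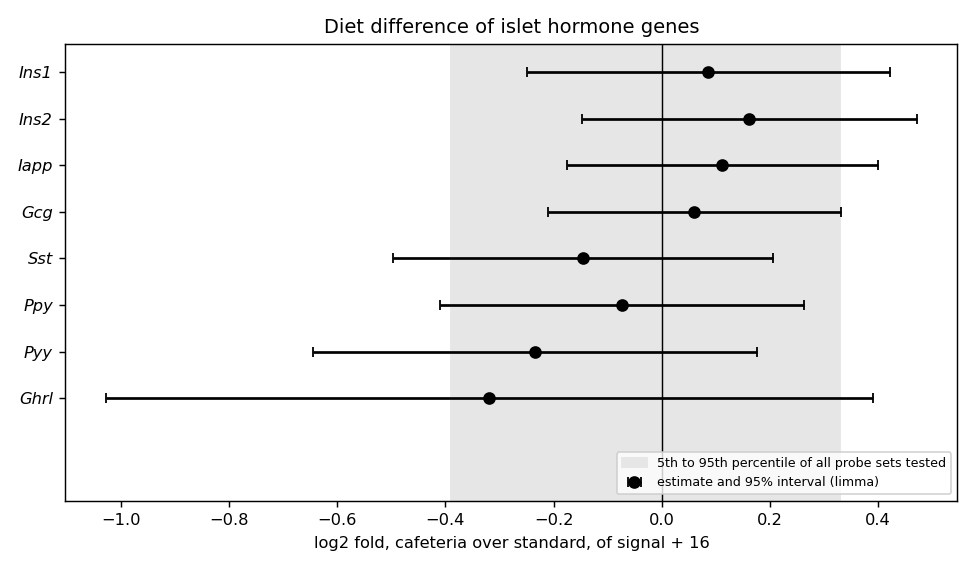
Log2 fold of cafeteria over standard for each hormone gene (points) with its 95% interval from limma (bars); the grey band spans the 5th to 95th percentile of all probe sets tested, -0.39 to 0.33. Each of the 8 intervals includes 0, and Ghrl has the widest, from -1.03 to 0.39.

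By rank, 6 of the 8 members lay among the brightest probe sets of their array. The brightest probe set reached 48659 to 72297 in cafeteria islets and 46683 to 68017 in standard islets. It belonged on 8 of 9 arrays to 1 probe set with no gene named here and on cafeteria replicate 3 to COX2, a mitochondrial respiratory chain gene. Gcg stood at 71.3% ± 2.57 (SD, n = 5) of that maximum in cafeteria and 71.3% ± 2.81 (n = 4) in standard islets. Iapp had 75.6% ± 2.06 and 72.9% ± 3.69, and Ppy 69.5% ± 7.07 and 76.3% ± 8.56. Ins1 stood at 54.8% ± 4.84 and 53.8% ± 5.38, and Ins2 at 45.6% ± 4.62 and 42.3% ± 2.26. Sst had 48.0% ± 9.24 in cafeteria and 54.8% ± 5.62 in standard islets. Pyy had 11.0% ± 2.69 and 13.1% ± 0.761, and Ghrl 0.864% ± 0.403 and 1.01% ± 0.138. Ranked by signal, the 6 brighter members held places between 4 and 76 of their array, Pyy between 312 and 1116, and Ghrl between 6281 and 15356. Probe sets differ in their response, so these places are not relative amounts of the transcripts. Whether signals this high are compressed was not tested.

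**Figure D3:**
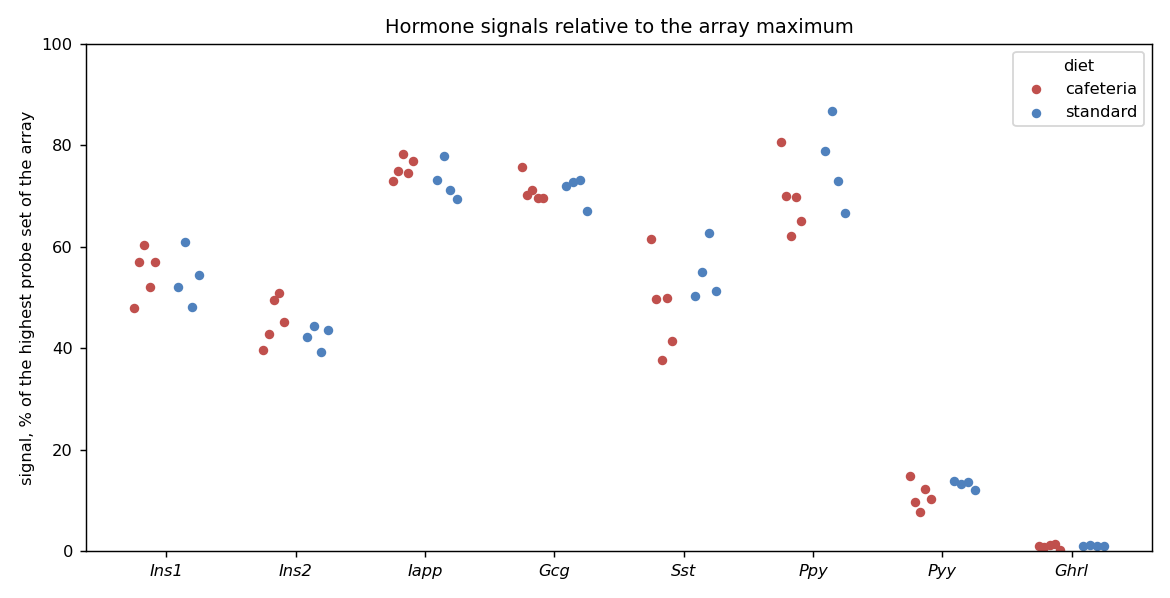
Signal of each hormone gene as a percentage of the highest probe set on the same array (y axis), 1 point per array, cafeteria left of standard. Iapp, Gcg and Ppy lie between 62.0% and 86.7% on each array, and Ghrl stays under 1.34%.

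Signals of the glucagon and beta cell hormone genes followed the array maximum. Over the 9 arrays, log2 Gcg correlated with the log2 maximum at Pearson's r = 0.97 (exact permutation p = 8.3e-05, adjusted over 8 genes 0.00033) and Spearman's rho = 0.93 (exact permutation p = 0.00075). Iapp had r = 0.96 (exact permutation p = 4.4e-05, adjusted 0.00033) and rho = 0.98 (exact permutation p = 5.0e-05). Without the 2 arrays farthest from the median, r was 0.93 for Gcg and 0.92 for Iapp. Ins1 had r = 0.88 and Ins2 0.86, with adjusted exact permutation p-values of 0.0056 and 0.0060, and Ppy 0.80 with 0.0156. By rank, Ins1 and Ins2 each had rho = 0.90 (adjusted exact permutation p = 0.0041) and Ppy 0.70 (0.069). Sst (r = 0.57), Pyy (0.54) and Ghrl (-0.09) had adjusted exact permutation p-values of 0.136, 0.148 and 0.813. Without the 2 arrays farthest from the median, r was 0.71 for Ins1, 0.73 for Ins2 and 0.70 for Ppy. It was then 0.13 for Sst, 0.05 for Pyy and 0.42 for Ghrl. All points of one array share its labelling, its scan and its scaling. Other bright probe sets were not correlated with the maximum, so these values do not set the hormone genes apart. Taken as a percentage of the maximum, the coefficient of variation over the 9 arrays was 3.51% for Gcg, against 13.8% for its signal, and 4.08% against 15.1% for Iapp. For Ins1 it was 8.79% against 17.7%, and for Ins2 8.94% against 16.4%. For Ppy it was 11.1% against 17.8%, for Sst 16.1% against 17.5% and for Pyy 19.1% against 21.4%. For Ghrl it was higher as a percentage, at 33.0% against 31.6%.

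By Pearson's r the beta cell hormones moved with Gcg, Sst with Pyy and Ppy, and Ppy with members of both sets. Of 28 pairs, 11 had an adjusted exact permutation p under 0.05 by Pearson's r and 4 by Spearman's rho, over all 362880 pairings of the arrays. Pairs of other bright probe sets were not counted, so these counts do not set the hormone genes apart. Iapp and Gcg had r = 0.95 (adjusted exact permutation p = 0.00062) and rho = 0.95 (0.0099), and r = 0.89 without the 2 arrays farthest from the median. Ins1 and Iapp had r = 0.94 (adjusted exact permutation p = 0.0032) and rho = 0.92 (0.018), and r = 0.82 without 2 arrays. Ins2 and Iapp had r = 0.91 (adjusted exact permutation p = 0.0067) and rho = 0.87 (0.032), and r = 0.78 without 2 arrays. The paired insulin genes Ins1 and Ins2 had r = 0.90 (adjusted exact permutation p = 0.0067) and rho = 0.75 (0.071), and r = 0.74 without 2 arrays.

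Sst and Pyy had r = 0.91 (adjusted exact permutation p = 0.023) and rho = 0.68 (0.128), with r = 0.87 without cafeteria replicates 2 and 3. Sst and Ppy had r = 0.82 (adjusted exact permutation p = 0.016) and rho = 0.88 (0.029), but r = 0.57 without those arrays. The neighbouring genes Ppy and Pyy had r = 0.83 (adjusted exact permutation p = 0.013) and rho = 0.75 (0.071), and r = 0.49 without cafeteria replicate 3 and standard replicate 1. Ppy had its highest r with Gcg, at 0.88 (adjusted exact permutation p = 0.013; rho = 0.80, 0.055) and 0.77 without 2 arrays. With Iapp it had r = 0.76 (adjusted exact permutation p = 0.043; rho = 0.77, 0.071) and 0.66 without 2 arrays. The pairs Ins1 with Gcg and Ins2 with Gcg had r = 0.81 and 0.77 (adjusted exact permutation p = 0.026 and 0.041). Both had rho = 0.80 (adjusted exact permutation p = 0.055), and r = 0.57 and 0.55 without cafeteria replicate 2 and standard replicate 3. The pairs Ins1 with Sst and Ins2 with Sst had r = 0.24 and 0.18 (adjusted exact permutation p = 0.760 and 0.777). Ghrl had r between -0.14 and 0.22 with the other members, and its lowest adjusted exact permutation p was 0.695. These r depend on cafeteria replicate 5, the lowest Ghrl signal: without it they were 0.070 to 0.63, with Ins2 at 0.63, Iapp at 0.41 and Sst at 0.070. Within diets r of Ghrl was -0.24 to 0.15 in cafeteria and 0.48 to 0.89 in standard islets. Within diets the r of Sst and Pyy was 0.92 in cafeteria and 0.97 in standard islets, and that of Iapp and Gcg 0.93 and 0.97. When each signal was first divided by the array maximum, r over the 9 arrays was 0.86 for Sst and Pyy, 0.72 for Sst and Ppy, 0.58 for Ins1 and Ins2 and 0.16 for Iapp and Gcg. Gcg then had 0.66 with Ppy, 0.51 with Sst, -0.39 with Ins1 and -0.50 with Ins2. Ins2 and Sst then had -0.74; these ratios share a denominator and were not tested.

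**Figure D4:**
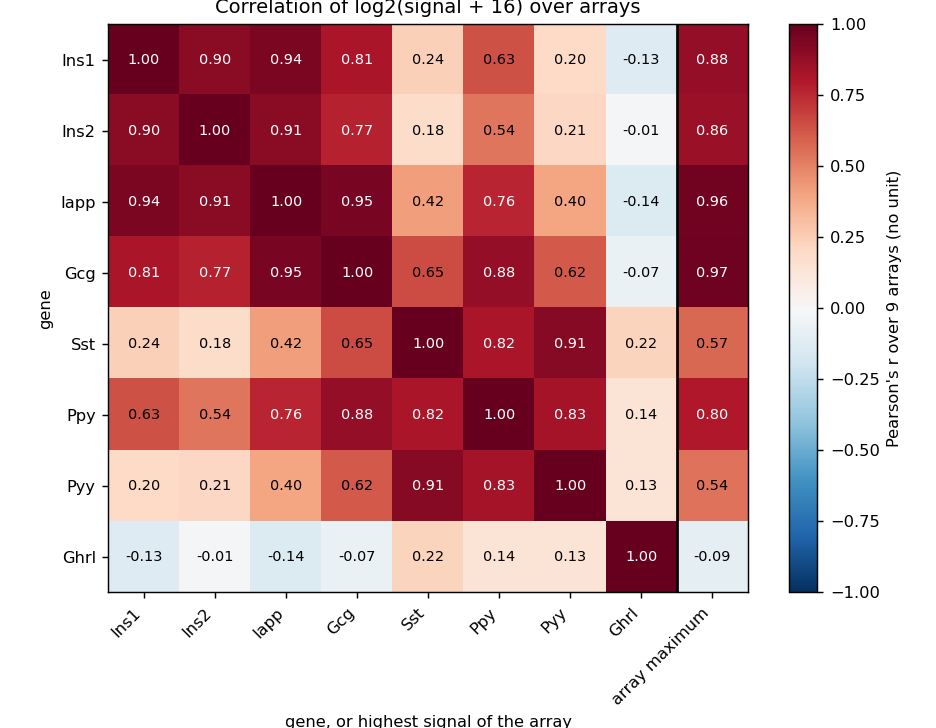
Pearson's r over the 9 arrays between log2(signal + 16) of hormone genes (rows and columns), with the log2 array maximum as the last column. Values are high among Ins1, Ins2, Iapp and Gcg and among Sst, Ppy and Pyy, and also between Ppy and Gcg (0.88) and Ppy and Iapp (0.76); those of Ghrl run from -0.14 to 0.22.

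Ratios of hormones within an array take out only what an array adds to both signals alike. With the array maximum, r was 0.97 for Gcg but 0.57 for Sst, 0.54 for Pyy and -0.09 for Ghrl. What a ratio keeps of the brightness of its array was not tested. The size of a ratio is not a ratio of molecules, so only changes between arrays are given. For Ins1 over Ins2 the ratio was 1.21, 1.33, 1.22, 1.03 and 1.26 in cafeteria islets, against 1.23, 1.37, 1.22 and 1.25 in standard islets. The SD of Ins1 over Ins2 over 9 arrays was 0.117 on the log2 scale, with cafeteria replicate 4 the lowest array. Iapp over Gcg had 0.965, 1.07, 1.10, 1.07 and 1.10 in cafeteria islets, against 1.01, 1.07, 0.973 and 1.03 in standard islets, and its SD over 9 arrays, 0.072 on the log2 scale, was the lowest of the 28 ratios. Ins2 over Sst had 0.645, 0.860, 1.32, 1.02 and 1.09 in cafeteria islets, against 0.837, 0.807, 0.626 and 0.851 in standard islets. Cafeteria replicate 1 lay low among cafeteria arrays, and 4 of 5 were above each standard array. Gcg over Pyy had 5.10, 7.28, 9.16, 5.69 and 6.73 in cafeteria islets, against 5.24, 5.49, 5.39 and 5.57 in standard islets. The standard arrays agreed closely in this ratio (SD 0.037 on the log2 scale), and the cafeteria arrays spread (SD 0.33).

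No ratio passed the test between diets: of 28, 0 had an adjusted p under 0.05 and 0 an unadjusted exact permutation p under 0.05. The lowest exact two-sided permutation p was 0.103, for Iapp over Ppy, and 0.614 after adjustment over the 28. That ratio had a log2 difference, cafeteria minus standard, of 0.19 ± 0.10 (SE), with 4 of 5 cafeteria arrays above the standard mean. Ins2 over Sst had 0.31 ± 0.22 (exact permutation p = 0.214), Ins2 over Pyy 0.40 ± 0.23 (exact permutation p = 0.127) and Gcg over Pyy 0.29 ± 0.17 (exact permutation p = 0.119). Ins1 over Ins2 had -0.08 ± 0.08 (exact permutation p = 0.373). For some ratios the overlap of the diets rested on cafeteria replicate 1. Without it, 6 of the 28 ratios no longer overlapped: Ins2 over Sst and over Pyy, Iapp over Sst, Ppy and Pyy, and Gcg over Pyy. Each then had an exact permutation p of 0.0286, the smallest that 70 splits allow, and 0.133 after adjustment. Groups of this size that do not overlap always give that p, so it only restates the separation. The log2 differences of the 6 ratios were then 0.45, 0.56, 0.37, 0.25, 0.48 and 0.39. These ratios share genes, so they are not independent. With any other single array left out, 0 of the 28 ratios had an unadjusted exact permutation p under 0.05. Without cafeteria replicate 1, 1655 of 18625 probe sets had an unadjusted limma p under 0.05, against 1080 with all arrays. How many of all probe sets did not overlap without that array was not counted. The 6 ratios therefore cannot be set against such a share.

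**Figure D5:**
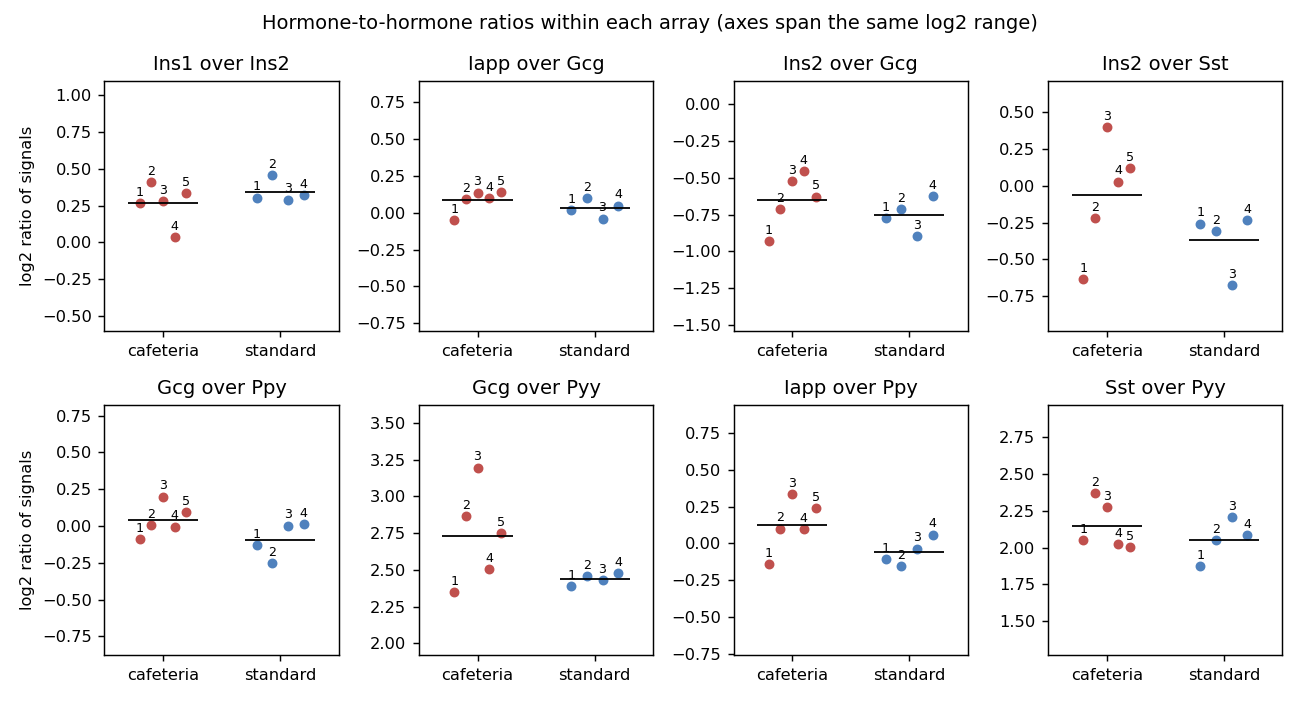
Log2 ratio of a pair of hormone signals within each array (y axes span the same range), cafeteria left and standard right, with lines at group means and replicate numbers. Cafeteria replicate 1 lies among or below the standard arrays for Ins2 over Sst and Gcg over Pyy, where the other cafeteria arrays lie above them.

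The genes with the most similar pattern were sought among 14053 named probe sets, by Pearson's r over the 9 arrays after centring each diet on its mean; being the highest of so many, these r carry no test. For Iapp they were COX2 (0.99), Lrrc32 (0.98) and COX1 (0.97), of which COX1 and COX2 encode mitochondrial respiratory subunits and are themselves among the brightest probe sets. For Sst they were Atf4, a transcription factor of the integrated stress response (0.97), and the ribosomal protein genes Rps9 (0.96) and Rps28 (0.96). For Gcg they were Ccdc191, Mir23b and Bola2 (0.97 each). Ins1 was most like Adck5 (0.96), Dlc1 (0.96) and Mcmbp (0.94), and Ins2 most like Mrpl4 (0.96), Tmem128 (0.94) and Cops3 (0.93). Ppy was most like Ecsit, Mrpl30 and Mir23b (0.94 each). Pyy was most like Klc3 (0.99), Dtwd1 (0.98) and Dgcr6 (0.97), and Ghrl most like Sp110, Tnrc6c and Eml2 (0.97 each). Without the 2 arrays farthest from the member's median, uncentred r was 0.41 for Pyy with Dtwd1, 0.59 for Sst with Rps9 and 0.97 for Iapp with COX2.

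Genes that process, regulate or receive the hormones also gave no calls. Of 14 tested genes of prohormone processing and granules, 0 passed adjusted over all probe sets in either direction, beside 0% of all probe sets, and 1 had an unadjusted p under 0.05, beside 5.80%, with a median log2 fold of 0.11 beside -0.0090 over all probe sets. Chgb, a granule protein, had a signal of 17518 ± 2017 (SD, n = 5) in cafeteria and 14129 ± 1934 (n = 4) in standard islets, a log2 fold of 0.31 ± 0.11 (SE, limma adjusted p = 0.839). Ero1b, an oxidase of proinsulin folding, had 0.23 ± 0.15, Scg5, the partner of Pcsk2, 0.14 ± 0.11, and the peptidase Prcp -0.85 ± 0.43. Of 13 tested transcription factors of endocrine cells, 0 passed, with a median of -0.10. The factors with the lowest p were Isl1 (-0.40 ± 0.19), Pdx1 (-0.19 ± 0.13), Irx1 (-0.24 ± 0.19) and Mafa, an activator of the insulin genes (0.15 ± 0.12). Of 13 tested receptor and receptor partner genes 0 passed, with a median of -0.033, among them Gipr (-0.37), Ramp1 (-0.50), Glp1r (-0.19) and Ramp3 (0.20). Of 18 named genes of other peptides, 6 passed the filter and 0 were called; Gast had -0.41, Trh -0.36, Cartpt 0.24 and Dbi -0.17.

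Signals of other cell types and of RNA quality varied between the arrays too. Summed over 12 named acinar genes the signal was 2944 to 10694 in cafeteria and 3829.8 to 9799 in standard islets. A log2 fold above 0 was found for 11 of 12, and 0 were called. An unadjusted limma p under 0.05 was found for 2, beside 5.80% of all probe sets. Over 10 macrophage and lymphocyte genes the summed signal was 3266 to 4678 in cafeteria and 4975 to 10316 in standard islets. These ranges did not overlap, where 1.76% of single probe sets had no overlap. Of the macrophage and lymphocyte genes, 9 of 9 tested had a log2 fold below 0 and 0 were called. An unadjusted limma p under 0.05 was found for 3, beside 5.80% of all probe sets. Cd74, an antigen presentation gene, averaged 2168 ± 384 (SD, n = 5) in cafeteria islets and 4412 ± 1965 (n = 4) in standard islets. Without Cd74 the sum was 1339 to 2036 in cafeteria and 1781 to 2968 in standard islets, which overlapped. Ptprc, Cd5 and C1qc had log2 folds of -0.98, -0.75 and -0.59, and Csf1r and Cd14 -0.30 and -0.21. C1qa, C1qb and Cd68 had -0.10, -0.14 and -0.0039. Over 6 endothelial genes the summed signal was 6051 to 7105 in cafeteria and 6736 to 7732 in standard islets. Over 6 duct genes it was 8356 to 12250.3 and 9665 to 13816, and over 6 stellate and fibroblast genes 5658 to 14269 and 8256 to 10264. The markers Cftr, Muc1 and Cd3e were below the filter, and none was at 0. The beta-actin 3′ to 5′ ratio, a measure of RNA integrity and labelling, was 2.79 to 5.63 in cafeteria and 3.00 to 4.84 in standard islets. It was highest on cafeteria replicate 3, the array with the lowest Sst, Ppy and Pyy, but next highest, at 4.84, on standard replicate 1, the array with the highest Ppy and Pyy. The Gapdh 3′ to 5′ ratio was 1.29 to 1.62 in cafeteria and 1.30 to 1.64 in standard islets, with 1.53 on cafeteria replicate 3. The array with the lowest insulin signals, standard replicate 3, had the highest macrophage and lymphocyte sum. The part of these values in the hormone signals was not tested.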

How the data were processed

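Islet RNA of 5 cafeteria-fed and 4 standard-fed rats was hybridised to Affymetrix Rat Genome 230 2.0 arrays. The deposited values are linear intensity signals, and per the submitters' processing notes the authors used MAS5, of which no release number or target value is stated in the labels. The trimmed mean of each array, with 2% removed at both ends, was 500.0, and no further scaling was applied. Control probe sets (57) were left out, leaving 31042, of which 20826 have 1 gene symbol, 436 several and 9780 none here. Of the 20826, 20758 matched a current gene of RefSeq, build GRCr8, whose sequences were used.

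The test was that of limma 3.58.1 under R 4.3.3, with an intensity trend, on log2(signal + 16). Benjamini-Hochberg adjustment covered 18625 probe sets, those at or above the 40th percentile of mean signal (about 91.1). This scale understates changes of dim genes. Ratios and correlations used exact enumeration in Python 3.11.15. Each gene had 1 probe set, so averaging probe sets gave nothing to compare. Members and gene lists were chosen with earlier results of these data known. Named besides members are the 3 most similar genes per member and up to 4 genes per list with the smallest p. On simulated arrays with 200 of 18625 probe sets changed, 2%, 74% and 99% were recovered at log2 folds of 0.5, 1 and 2. Same-numbered arrays of the diets deviated with correlations of -0.38, -0.05, -0.12 and 0.03, so the numbers were not taken as pairs. Alternatives were other pseudocounts, scalings, filters and variance models, array weights, the replicate number as a block and each array left out. The marker sum without Cd74 and the Ghrl correlations without cafeteria replicate 5 were added after the data were seen.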

Additional observations from a re-analysis of the deposited data

Results flagged for a closer look

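In 72 groups of arrays, formed by 8 genes and 28 ratios in each diet, 5 had an end value set apart from the rest, measured as its gap to the nearest array over the range of the group; chance alone gives about 1 in 20. Log2 Sst was high on standard replicate 1, with a gap of 0.881 of the range of the standard arrays. Log2 Pyy was low on cafeteria replicate 3, with a gap of 0.731. The ratio of Ins2 over Ghrl was high on cafeteria replicate 5 (0.736), where Ghrl was low, and that of Iapp over Gcg was low on cafeteria replicate 1 (0.756). The ratio of Sst over Ghrl was low on standard replicate 2 (0.864).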

How the results depend on the processing

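Over 21 alternative settings, 0 of 168 member tests had an adjusted p under 0.05 in limma, with values from 0.499 to 1.00. The count of all probe sets called was 0 except for 2 without standard replicate 2 (0 to 2 with each array left out) and 1 when arrays were scaled to an upper percentile of signal (24122.0 to 28359 in cafeteria and 21693 to 29445 in standard islets), a setting added after the data were seen. The sign turned for Gcg with quantile normalisation (-0.012) and with that scaling (-0.0083), for Ppy with array weights (0.044) and for Ghrl with the replicate block (0.029), a fit that leaves cafeteria replicate 5, which has no same-numbered standard array, without weight. In the block setting the ratios of Sst, Ppy and Pyy over Ghrl had -0.15, -0.10 and -0.28; no member or ratio was called there. With standard replicates 1 and 3 and cafeteria replicate 3 left out together, also added later, Sst had 0.048, Ppy 0.035 and Pyy 0.0053, and ratios turned to -0.138 for Ins1 over Gcg, -0.029 for Ins1 over Sst, -0.016 for Ins1 over Ppy, -0.010 for Ins2 over Iapp, -0.013 for Ins2 over Gcg, -0.0025 for Iapp over Gcg and 0.013 for Sst over Ppy. With each array left out, log2 folds ranged from -0.057 to 0.17 for Ins1, -0.017 to 0.16 for Gcg, -0.24 to 0.0041 for Sst, -0.18 to 0.036 for Ppy and -0.52 to 0.029 for Ghrl, and with no turn of sign from 0.037 to 0.25 for Ins2, 0.011 to 0.21 for Iapp and -0.32 to -0.053 for Pyy. Ratio differences ranged from -0.068 to 0.0094 for Ins1 over Iapp, -0.039 to 0.096 for Ins1 over Gcg, -0.134 to 0.013 for Sst over Ppy, -0.15 to 0.38 for Sst over Ghrl, -0.10 to 0.44 for Ppy over Ghrl and -0.28 to 0.33 for Pyy over Ghrl. The causes were not tested. As a percentage of that percentile in place of the maximum, members stood at 2.09% (Ghrl) to 168% (Iapp). Small folds were hardly recovered on simulated arrays, and signals near the top of the scale may limit what can be seen; that was not tested.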
